A study of Mus musculus with 8 samples.

Results

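The 10 genes described here, Adipoq, Lep, Plin1, Plin4, Cidec, Cfd, Retn, Lipe, Slc2a4 and Adrb3, are known as genes of the fat cell and were measured in RNA from adipose tissue macrophages. They were chosen by name, with earlier results of these data known, and all 10 were found among the 15867 genes of the deposited table. The 8 libraries came from cells selected for F4/80, a macrophage surface protein, out of the fat of mice fed a high-fat diet for 20 weeks. All 8 samples carried loxP-flanked Mirc11 and Mirc22, 2 clusters that each encode a miR-23, a miR-24 and a miR-27 (Mirc11fl/fl Mirc22fl/fl). The 4 control samples were Lyz2+/+, and the 4 knockout samples were Lyz2Cre/Cre, in which Cre recombinase is expressed from the lysozyme gene of myeloid cells. No group carried Cre with intact clusters, so the clusters, Cre and Lyz2 cannot be told apart between the groups. The labels give neither age nor sex, and they do not say whether a replicate is 1 mouse, so each p-value here reflects only how far these 8 samples spread, which may be technical. Recovered totals ran from 31789395 to 46621080 reads per library. Lyz2 lay between 156727 and 204853 normalized counts in control and between 174 and 273 in knockout libraries, so each library matched its genotype label there.

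Fat cells store triglyceride in a large lipid droplet and secrete hormones into the blood. Adiponectin (Adipoq), leptin (Lep), resistin (Retn) and the complement protease adipsin, or factor D (Cfd), are secreted products. Perilipin 1 (Plin1), perilipin 4 (Plin4) and Cidec coat or enlarge the droplet. In lipolysis, noradrenaline acts on the β3-adrenergic receptor (Adrb3), and hormone-sensitive lipase (Lipe) then cleaves stored lipid, while insulin brings the glucose transporter GLUT4 (Slc2a4) to the cell surface. Macrophages can hold lipid droplets and lipases of their own. The Lyz2-driven Cre is used to delete genes in myeloid cells and not in fat cells.

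The microRNAs of the deleted clusters were compared with the 3′ untranslated regions of the 10 genes, since they are what the knockout removes. Their mature sequences (RefSeq, GRCm38.p6) are shown with the seed, bases 2 to 8, in capitals. The miR-27 arms share a seed, and miR-24-3p is encoded in both clusters. The sequence of miR-23b-3p was not used here.
miR-23a-3p: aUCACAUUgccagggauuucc
miR-24-3p: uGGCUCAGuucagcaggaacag
miR-27a-3p: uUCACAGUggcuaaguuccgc
miR-27b-3p: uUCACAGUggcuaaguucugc

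Only Lep and Plin1, among the longest annotated 3′ untranslated regions of the 10 genes (GENCODE M21), held the 7-base match to any of these seeds, and the match was to miR-24. Lep had it at 2 places and Plin1 at 1, where a following A makes it the 8-base match. Each is shown within 30 bases, 5′ to 3′ on the strand of the gene, with the match in capitals.
Lep, chr6:29072429-29072458, plus strand: agcagatggtcCTGAGCCctgggccagcac
Lep, chr6:29073669-29073698, plus strand: gctggaatgtcCTGAGCCtttcgctcagag
Plin1, chr7:79721334-79721363, minus strand: tttagggtggcCTGAGCCAcgaccccacga

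The coordinates are those of mm10, in which Lep spans chr6:29060220-29073877 and Plin1 chr7:79720218-79732903, and all 3 places lie in exons. The match CTGAGCC occurred in 19.2% of the 14798 measured genes with an annotated 3′ untranslated region, and a 7-base match to at least 1 of the 3 families in 41.1%, beside 2 of these 10 genes. The length of that region matters for such a search: it was 2695 bases in Lep and 1203 in Plin1 but 69 in Cfd and 434 in both Adipoq and Lipe. A match is a run of letters and does not show that a microRNA acts there. The letters AGGTCA, and the direct repeat of 2 such runs with any 1 base between them that PPARγ binds, were searched on both strands of the RefSeq promoters (250 bases before to 50 after the start) of the 8 genes with an entry, which are the 10 without Slc2a4 and Adrb3. None of the 8 held either, while the repeat occurred in 0.0396% and a single AGGTCA, those in repeats included, in 16.3% of the 32851 promoters. No match says only that these letters are not in this window.

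Reads of the 10 genes ran from 10 per library at the lowest, for Adrb3, to 4024 of Lipe in knockout replicate 1. No deposited value of any gene is under 1 read, so presence in all 8 libraries holds for every gene and is not particular to these. Levels of different genes are compared here as normalized counts per kilobase of the longest coding transcript, averaged over the 8 libraries with the SD over them. Lipe was the highest, at 780.0 ± 121 per kilobase, followed by Cidec (357 ± 56.7) and Plin4 (219 ± 34.8). The lipase and these droplet proteins kept this order in 8 of 8 libraries. Slc2a4 (177 ± 44.3) and Plin1 (171 ± 45.7) did not differ beyond their spread, with Slc2a4 the higher in 5 of 8 libraries. Lep came next at 139 ± 33.1 and was above Adipoq (106 ± 19.1) in 7 of 8 libraries.

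The secreted products Cfd and Retn, and the receptor gene Adrb3, were the lowest. Cfd stood at 34.4 ± 14.6 per kilobase and Retn at 23.7 ± 7.21, with Cfd the higher in 6 of 8 libraries, and Adrb3 at 5.43 ± 1.79. Adipoq and Cfd, which are among the most abundant transcripts of fat cells, thus lay below the lipase and the droplet genes here. Adgre1, which encodes F4/80, had 128 times the level of Adipoq per kilobase and 17.4 times that of Lipe. Lipe (780.0 per kilobase) was nearer to the lowest genes of the macrophage list, the engulfment receptor Mertk at 1012 and the antibody receptor Fcgr1 at 1372, both picked once their values were known. Plin2, the perilipin of droplets in many cell types and in macrophages, had 333 times the level of Adipoq. Summed over the 10 genes, they took 121 to 213 RPM, the recovered reads scaled to the library total, and Lipe alone made up 45.5% of the summed normalized count.

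**Figure D1:**
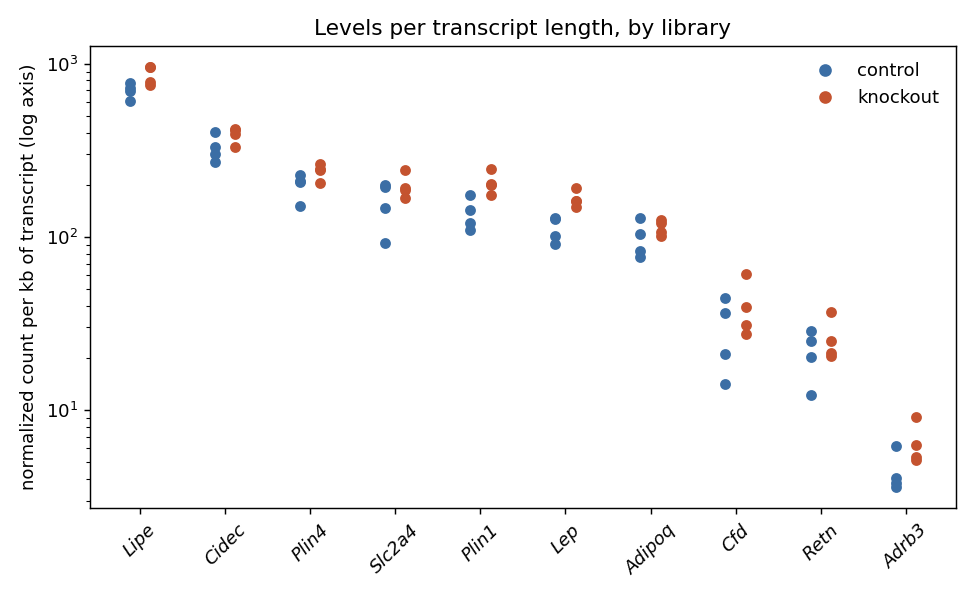
Normalized count per kilobase of the longest coding transcript (log axis) for the 10 genes, ordered by their mean; each point is 1 library, control in blue and knockout in orange (n = 4 each). Lipe lay at the top near 780.0 and Adrb3 at the bottom near 5.43 per kilobase.

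Every one of the 10 genes had a higher mean in knockout than in control macrophages, and none passed the test. On the scale of log2(normalized count + 1), the differences (knockout minus control, limma) ran from 0.23 for Adipoq to 0.60 for Plin1, with a median of 0.33 beside 0.00 over all 15862 genes tested. At a Benjamini-Hochberg adjusted p under 0.05, limma called 3.61% of all genes (1.24% higher and 2.38% lower in knockout) and 0 of these 10. edgeR on recovered reads also called 0 of them (1.2% of all genes higher and 2.31% lower), and DESeq2 on the same reads called 2 as higher, Lep and Plin1 (4.66% higher and 6.23% lower among the genes with an adjusted p). At an unadjusted limma p under 0.05 there were 3 higher and 0 lower, Lep, Plin1 and Lipe, where 21.2% of all genes had such a p and 10.8% were higher. A difference above 0 was found for 50.5% of all genes and for 10 of 10 of these. In bulk RNA, more cells of a type and more RNA per cell cannot be told apart.

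Among the hormones, leptin differed most. Lep, the signal of fat stores to the brain, measured 331, 413, 421 and 297 normalized counts in the control libraries, in the order of replicates 1 to 4 as in all such lists, and 523, 527, 481 and 621 in the knockout ones. All 4 knockout libraries lay above all 4 controls, which held for Lep alone among the 10 genes and for 5.52% of all genes tested; none of the 10 was lower without overlap, as 8.21% of all genes were and 13.7% were in either direction. Its means were 365 ± 60.8 and 538 ± 59.0 (SD, n = 4 each), a log2 difference of 0.57 (SE 0.13, 95% interval 0.27 to 0.86, limma adjusted p = 0.0515). The adjusted p was 0.0525 in edgeR and 0.00328 in DESeq2, and 0.0427 in limma when genes with a mean under 50 were left out. In the authors' deposited table the log2 fold change of Lep, turned to knockout over control, was 0.56 with an adjusted p of 0.00329, and that table called 4.66% of genes higher at 0.05.

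Adipoq, the insulin-sensitizing hormone of fat cells, measured 99.0, 167, 134 and 107 in control and 156, 137, 131 and 162 in the knockout ones. The highest of the 8 values was a control, replicate 2, and the groups overlapped. The difference was 0.23 (SE 0.18, 95% interval -0.16 to 0.63, limma adjusted p = 0.493), so the interval holds both no difference and one as large as that of Lep. Without control replicate 1 the difference of Adipoq was 0.12, and without control replicate 2 it was 0.37.

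Retn, which encodes resistin, rested on 14 to 48 reads per library. It measured 22.9, 32.5, 28.4 and 14.0 in control and 42.2, 24.2, 23.4 and 28.3 in the knockout ones, and 2 control libraries exceeded 3 of the knockout libraries. The difference was 0.28 (SE 0.31, 95% interval -0.41 to 0.98, limma adjusted p = 0.646). It was 0.05 without control replicate 4, 0.10 without knockout replicate 1 and 0.44 without control replicate 2.

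Cfd, the protease that cleaves factor B in the alternative complement pathway, measured 13.1, 33.5, 19.3 and 40.9 in control and 56.2, 25.3, 28.7 and 36.4 in the knockout ones. Its lowest library had 16 reads (exact 95% Poisson interval 9.15 to 26.0) and its highest 64 (49.3 to 81.7), so these libraries differed by more than counting error, which is all that such intervals cover. The groups overlapped, and the difference was 0.50 (SE 0.39, 95% interval -0.38 to 1.39, limma adjusted p = 0.505), with 0.22 without control replicate 1 and 0.28 without knockout replicate 1. Cfd varied most within a group of all 10 genes, with a coefficient of variation of 47.8% in control and 37.8% in knockout libraries, where counting alone would give 17.6%.

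Of the droplet proteins, Plin1 had the largest difference of the 10 genes. Perilipin 1 guards the fat cell's droplet against lipases until noradrenaline releases it. Plin1 measured 308, 494, 404 and 338 in control and 572, 491, 561 and 692 in the knockout ones. Control replicate 2 lay just above knockout replicate 2, and the other 3 controls lay below every knockout library. The means were 386 ± 82.4 and 579 ± 83.3 (log2 difference 0.60, SE 0.16, 95% interval 0.24 to 0.96, limma adjusted p = 0.0796). DESeq2 gave 0.0126 and edgeR 0.0852, the authors' deposited table listed an adjusted p of 0.0126, and limma without control replicate 2 gave 0.0407.

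Plin4, a perilipin of nascent droplets, measured 872, 1209, 1307 and 1192 in control and 1523, 1414, 1407 and 1178 in the knockout ones. Here 3 knockout libraries were above all controls, while knockout replicate 4 fell among them. The difference was 0.28 (SE 0.13, 95% interval -0.02 to 0.58, limma adjusted p = 0.260), and 0.15 without control replicate 1. Plin4 (chr17:56100591-56109803, minus strand) overlaps Hdgfl2 on the opposite strand, and whether reads were counted by strand is not given.

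Cidec, which fuses droplets into larger ones, measured 463, 568, 691 and 518 in control and 723, 677, 569.7 and 708 in the knockout ones. Control replicate 3 lay above 2 of the knockout libraries. The difference was 0.27 (SE 0.13, 95% interval -0.03 to 0.56, limma adjusted p = 0.276).

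Lipe, the most abundant of the 10, measured 2256, 2870.4, 2578 and 2697 in control and 3536, 2897, 2781 and 3553 in the knockout ones. Knockout replicates 1 and 4 were well above the rest, and knockout replicate 3 lay under control replicate 2. The means were 2600.4 ± 259 and 3192 ± 410.1 (log2 difference 0.29, SE 0.10, 95% interval 0.06 to 0.53, limma adjusted p = 0.159). With 2268 reads or more in each library, counting error of Lipe was 1.85%, far under the 9.96% and 12.8% by which libraries of 1 group varied. An antisense gene overlaps Lipe on the other strand, as one does Adrb3.

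Adrb3, the receptor upstream of this lipase, rested on 10 to 25 reads per library. It measured 10.6, 17.3, 11.4 and 9.98 in control and 17.6, 14.3, 14.9 and 25.3 in the knockout ones. The exact 95% Poisson interval was 4.80 to 18.4 for 10 reads and 16.2 to 36.9 for 25, so even these extremes overlapped in counting error. The difference was 0.51 (SE 0.29, 95% interval -0.14 to 1.16, limma adjusted p = 0.347), and the pseudocount of 1 understates changes at this level.

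Slc2a4, the insulin-responsive glucose transporter of fat and muscle, measured 233, 503, 489 and 368 in control and 615, 468, 484 and 421 in the knockout ones. A single low library, control replicate 1, and a single high one, knockout replicate 1, bounded the range, and the other 6 were mixed. The difference was 0.37 (SE 0.24, 95% interval -0.17 to 0.90, limma adjusted p = 0.417), and 0.13 without control replicate 1.

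**Figure D2:**
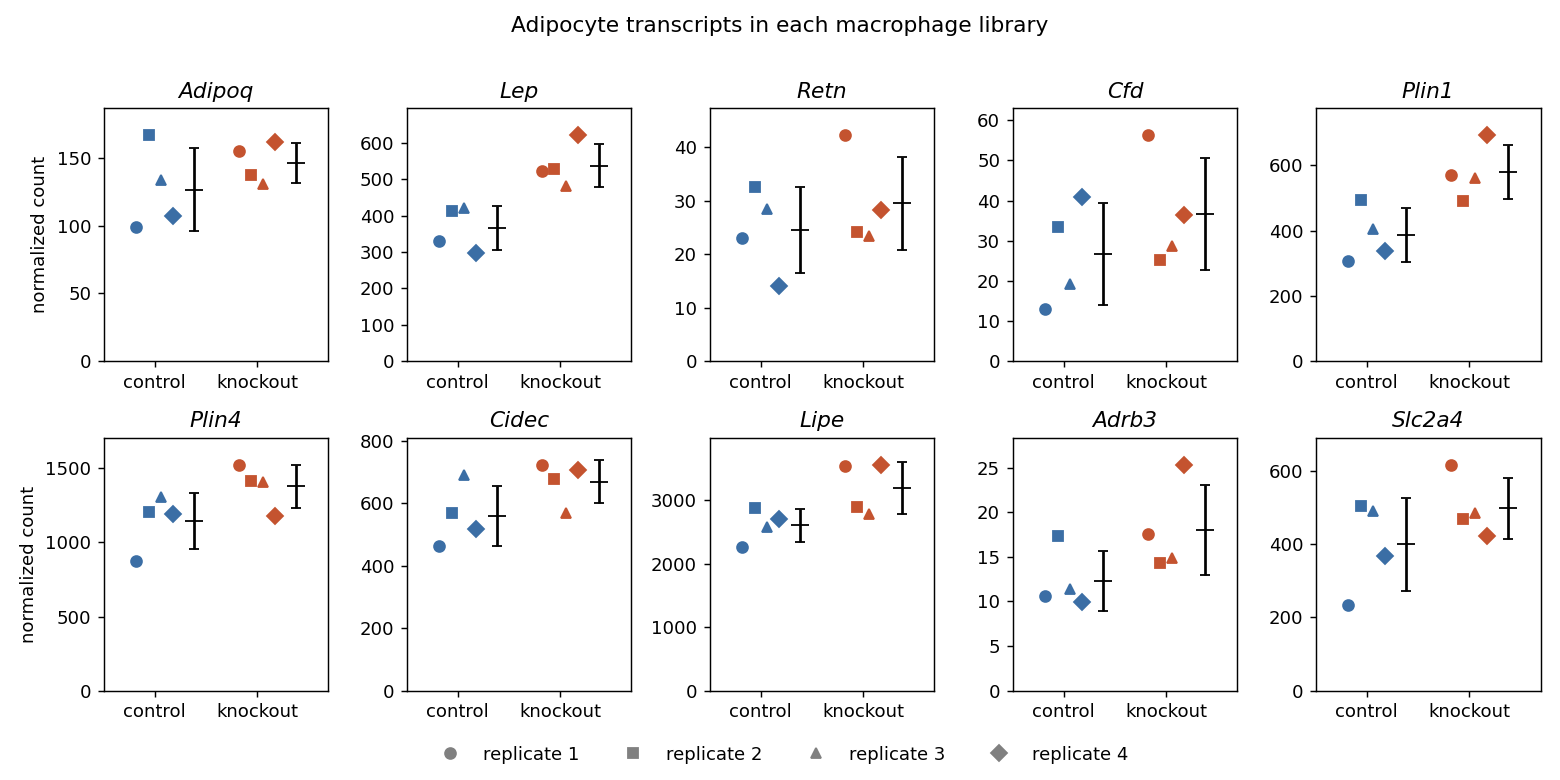
Normalized counts (linear axes from 0) of the 10 genes in control (blue) and knockout (orange) libraries; each symbol is 1 library, its shape the replicate number, and the bar beside each group is the mean ± SD (n = 4). Only for Lep did all 4 knockout values lie above all 4 control values, 481 at the lowest against 421 at the highest.

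**Figure D3:**
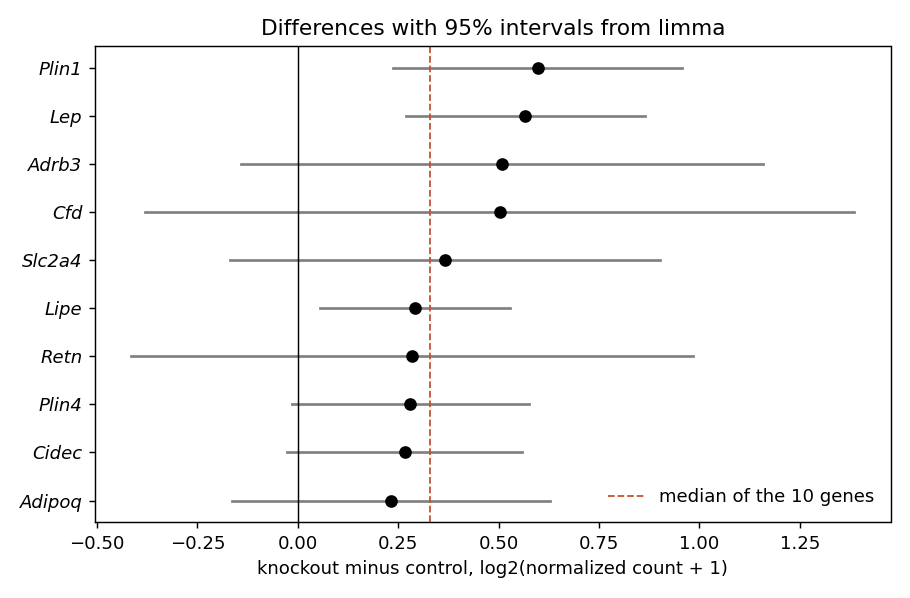
Knockout minus control difference of log2(normalized count + 1) for each gene, with the 95% interval from limma; the solid vertical line is no difference and the dashed line the median of 0.33. The intervals of Plin1, Lep and Lipe lay above 0, and none of the 10 genes passed after adjustment over all genes.

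The same libraries were low or high across the set. Control replicate 1 was the lowest of the 8 libraries for 7 of the 10 genes, and control replicate 4 was the lowest for Lep, Retn and Adrb3. Knockout replicate 1 was the highest for 5 genes and knockout replicate 4 for 4. The summed normalized count of the 10 genes was 4609, 6307, 6082 and 5583 in control and 7764, 6676, 6482 and 7424 in the knockout ones. The sums did not overlap, and the knockout mean was 1.26 times that of the control. Leaving out Lipe gave 2353 to 3504 in the controls against 3701 to 4228 in the knockouts, and a ratio of 1.28. The median difference of the 10 genes was 0.22 without control replicate 1 and 0.47 without control replicate 2.

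The genes kept their proportions to each other only in part. The SD over the 8 libraries of the log2 ratio to Adipoq, in which the scaling of a library cancels, was lowest for Lipe (0.17) and highest for Cfd (0.55). The SD that read counting alone would give is 0.13 for Lipe and 0.31 for Cfd. The ratios of Retn (0.31, where counting gives 0.32) and Adrb3 (0.26 and 0.41) to Adipoq varied no more than counting error. For the other 7 genes the ratio varied more than counting would give. Among all pairs, Lep and Plin1 had the steadiest ratio, with an SD of 0.15 and a 1.29-fold span from lowest to highest, followed by Cidec and Lipe with an SD of 0.16. Cfd and Retn had the least steady one (SD 0.71).

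Other genes known from fat cells were counted next, from lists drawn up by function with earlier results of these data known. Of 21 measured genes of a wider adipocyte list, 0 rose, 1 fell and 20 did not pass in limma, with a median difference of 0.33. At an unadjusted limma p under 0.05, 4 were higher and 2 lower, where 21.2% of all genes had such a p. Groups did not overlap for 4 higher and 2 lower genes of this list, beside 5.52% and 8.21% of all genes. Ffar4, a receptor for long-chain fatty acids that macrophages express as well, fell from 105 ± 8.58 to 52.6 ± 14.0 (-1.02, SE 0.20, limma adjusted p = 0.0306), against the direction of the 10 genes. Gpd1, which makes the glycerol backbone of triglyceride, measured 575 ± 72.9 and 741 ± 52.0 without overlap (0.37, limma adjusted p = 0.0783). Fabp4, the fatty acid binding protein that fat cells, endothelium and macrophages share, was the most abundant at 51116 ± 8765 and 68722 ± 17267 (0.41, limma adjusted p = 0.256). Adig and Acvr1c, 2 further fat cell genes picked once their values were known, had the lowest mean normalized counts of this list, not scaled to length. They were measured at 8.50 to 31.9 and 8.50 to 24.0 normalized counts. Per kilobase their means were 22.0 and 1.68, and Adig was then not among the 2 lowest. Sncg and Aqp7, picked in the same way, were far higher, at 1028 to 2403 and 860 to 2254. DESeq2 called 2 genes of this list higher, Aqp7 and Gpd1, and 2 lower, Ffar4 and Cebpa. It gave 15 of the 21 genes an adjusted p.

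Of 13 other measured genes of lipid droplets and lipolysis, 0 passed in limma, edgeR or DESeq2, and 3 were higher at an unadjusted limma p under 0.05; the median was 0.02. The abundant Plin2 measured 71721 ± 11093 and 61234 ± 8835 (-0.23, limma adjusted p = 0.377). Hilpda, an inhibitor of the lipase ATGL, measured 693 ± 121 and 984 ± 307 (0.47, limma adjusted p = 0.223), and G0s2, another such inhibitor, 246 ± 25.8 and 305 ± 27.5 (0.31, limma adjusted p = 0.148). Of 12 genes of fatty acid and triglyceride synthesis, 0 passed in limma or edgeR, while DESeq2 called 2 higher and 2 lower; 3 were higher and 2 lower at an unadjusted limma p under 0.05. Agpat2, an acyltransferase of triglyceride synthesis, measured 819 ± 48.3 and 674 ± 38.8 (-0.28, limma adjusted p = 0.0609). Me1, the malic enzyme that supplies NADPH, measured 323 ± 29.9 and 417 ± 25.7 (0.37, limma adjusted p = 0.0619), and the most abundant, Acly, 9149 ± 135 and 9767 ± 218 (0.09, limma adjusted p = 0.246).

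On the receiving side, 1 of 12 receptors and partners rose and 1 fell. Adipor1, a receptor for adiponectin, fell from 7705 ± 286 to 6156 ± 396 (-0.33, SE 0.06, limma adjusted p = 0.0233). Irs1, which couples the insulin receptor to its kinases, rose from 207 ± 29.0 to 304 ± 13.1 (0.56, SE 0.12, limma adjusted p = 0.0371). Leaving out 1 library at a time ended the call of Adipor1 in 4 of 8 fits, that of Irs1 in 6 and that of Ffar4 in 7. Cap1, an actin-binding protein described as a resistin receptor, was the most abundant at 24938 ± 1892 and 21731 ± 1262 (-0.20, limma adjusted p = 0.173). Of 6 genes around factor D in the alternative complement pathway, 0 passed in limma or edgeR; DESeq2 called 2 higher and 1 lower, as did an unadjusted limma p under 0.05. Properdin (Cfp), which stabilizes the convertase, measured 10181 ± 1574 and 15056 ± 2807 (0.56, limma adjusted p = 0.0759). The complement receptor gene C3ar1 measured 16893 ± 1299 and 13602 ± 1502 (-0.32, limma adjusted p = 0.0996), and C3 itself 35228 ± 11528 and 42320.4 ± 8129 (0.30, limma adjusted p = 0.497). Of 4 measured genes of thermogenic fat, 0 passed in limma, edgeR or DESeq2, and 0 had an unadjusted p under 0.05. DESeq2 gave an adjusted p to only 2 of them. Ucp1, Cidea and Cox8b of this list were not among the genes of the deposited table. Elovl3, an elongase of brown fat, was measured at 7.75 ± 2.45 and 12.7 ± 2.60, Ppargc1a at 60.7 ± 9.22 and 48.8 ± 19.8, and Cox7a1 at 56.8 ± 16.7 and 64.3 ± 9.86.

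Markers of other cell types in fat followed the 10 genes to different degrees. For each list the log2 values of its genes were centred on their mean over the 8 libraries and averaged. The mean of the 10 adipocyte genes was -0.53, 0.11, -0.08 and -0.28 in control and 0.40, 0.05, 0.04 and 0.29 in the knockout ones. The mean of 9 endothelial markers was -0.71, 0.14, -0.04 and -0.49 in control and 0.52, 0.06, 0.01 and 0.50 in knockout. In both lists control replicates 1 and 4 were the lowest libraries and knockout replicates 1 and 4 the highest. The root mean square difference between these profiles was 0.13, against 0.17 for 5 mural cell markers. It was 0.19 for the 21 genes of the wider adipocyte list and 0.24 for 3 neutrophil markers. For 10 fibroblast and preadipocyte markers it was 0.45, and for 7 macrophage markers without Lyz2 0.48. Lyz2 was left out of that list after its loss in the knockout was seen. For mesothelial, T and NK cell, B cell and erythroid markers the root mean square difference was 0.46, 0.49, 0.53 and 0.57. A list that hardly varies also has a limited difference. The genes of fatty acid and triglyceride synthesis, whose mean stayed between -0.08 and 0.14, lay at 0.28. A value near or above that does not show that a list followed the 10 genes.

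The endothelial markers were 9 of 9 higher in mean, with a median of 0.53, and none at 0. In limma and edgeR 0 of 9 passed, DESeq2 called 3 higher, and 7 were higher at an unadjusted limma p under 0.05. Cldn5, a tight junction protein of vessels, measured 7530 ± 2270 and 11880.2 ± 2398 (0.69, SE 0.22, limma adjusted p = 0.128), Esam, another endothelial junction protein, 5199 ± 1041 and 7299.5 ± 1272 (0.50), and Pecam1 17235 ± 3990 and 24107 ± 4077 (0.50). Of the 8 macrophage markers 4 fell, Lyz2, Itgam, Csf1r and Cd68, the last 2 picked once their values were known. With 1 library left out, the call of Csf1r was lost in 7 of 8 fits and that of Cd68 in 3 of 8, and scaling to the same total gave Csf1r a limma adjusted p of 0.0594. Itgam, the integrin CD11b, fell from 19876 ± 1400.1 to 14328 ± 767 (-0.47, SE 0.07, limma adjusted p = 0.0103). The summed endothelial markers spanned 49716 to 90646 in the controls and 82971 to 118250 in the knockouts.

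The 10 genes were also set against other cell types of the same libraries. As a percentage of the 7 summed macrophage markers, their sum spanned 1.87 to 2.98 in the controls against 3.31 to 4.07 in the knockouts, without overlap. The knockout mean of this percentage was 1.58 times that of the control. The summed macrophage markers were themselves lower, with a knockout mean 0.781 times that of the control. Of these 7 markers 0 had a difference above 0, and their median was -0.41. The sum of the 10 genes alone was 1.26 times the control. As a percentage of the 9 summed endothelial markers, the range was 6.96 to 9.31 in control libraries against 6.47 to 7.81 in those of the knockout, with the knockout mean 0.865 times that of the control. Against the mural markers the ratio of these means was 0.976 and against the fibroblast and preadipocyte markers 1.02, with overlapping groups. The part of vessel cells, or of fewer macrophages, in the differences of the 10 genes was not tested.

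**Figure D4:**
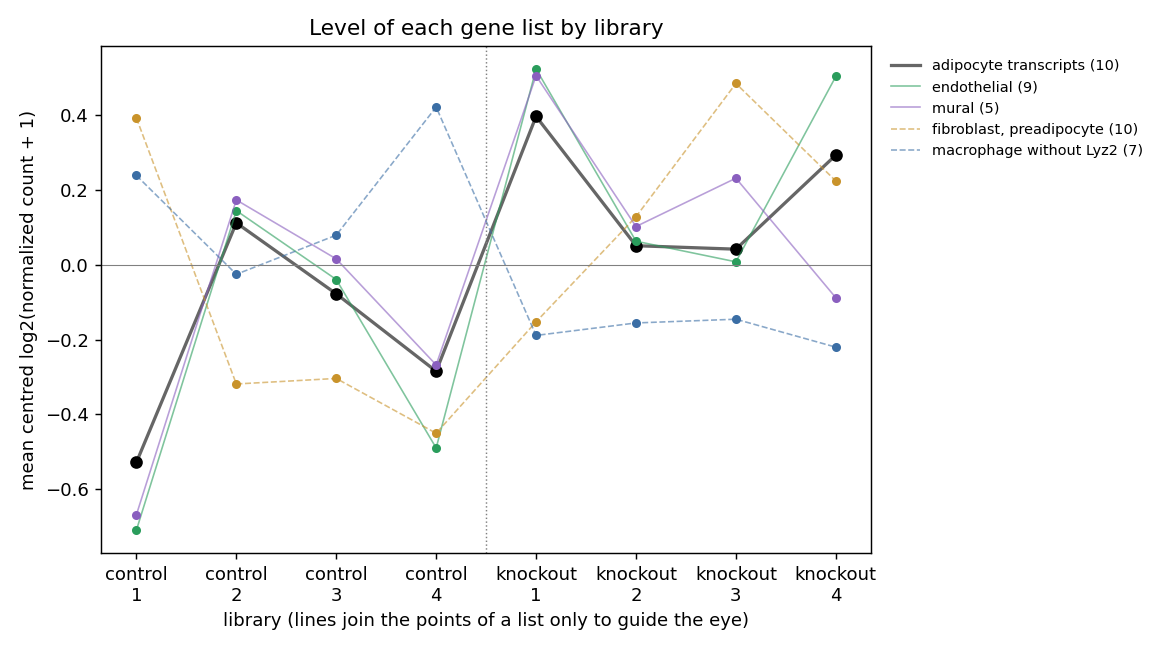
Mean of the centred log2(normalized count + 1) of each gene list (vertical axis) in the 8 libraries (horizontal axis), with the number of genes in brackets. The 10 adipocyte transcripts (black) and the 9 endothelial markers (green) were both lowest in control replicate 1, at -0.53 and -0.71, and highest in knockout replicate 1, at 0.40 and 0.52.

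Markers of the remaining cell types were present as well. In limma and edgeR 0 genes passed among 10 fibroblast and preadipocyte, 5 mural, 5 mesothelial, 7 T and NK cell, 5 B cell, 3 neutrophil and 5 erythroid markers. At an unadjusted limma p under 0.05 there were 3, 2, 2, 4, 0, 0 and 4 in that order, each of them higher. DESeq2 called 1, 1, 2, 0, 0, 0 and 3, and gave an adjusted p to only 1 of the 3 neutrophil markers. The limma difference was above 0 for 10 of 10, 5 of 5, 4 of 5, 7 of 7, 5 of 5, 2 of 3 and 5 of 5. The medians in the same order were 0.33, 0.36, 0.43, 0.71, 0.51, 0.09 and 1.00, beside 0.33 for the 10 adipocyte genes. The collagen gene Col1a1 measured 17215 ± 3048 and 24414 ± 5066 (0.50, limma adjusted p = 0.142) and Col1a2 24644 ± 4221 and 32238 ± 6147. The pericyte gene Rgs5 measured 14566 ± 4199 and 20419 ± 2271, Pdgfrb, a growth factor receptor of mural cells, 6342 ± 1091 and 8092 ± 663, and the smooth muscle myosin Myh11 19871 ± 5701 and 23330.1 ± 6629. Mesothelial Upk3b measured 112 ± 23.4 and 218 ± 60.8 without overlap (0.93, SE 0.23, limma adjusted p = 0.0667), and Lrrn4 36.4 ± 7.48 and 71.7 ± 25.9. Hemoglobin transcripts of red cells had the largest median of these lists, 1.00, with Hbb-bs at 854 ± 344 and 1858 ± 704, Hba-a1 at 467 ± 116 and 939 ± 302 and Hba-a2 at 794 ± 317 and 1655 ± 545. The natural killer genes Ncr1 (11.2 ± 2.40 and 22.5 ± 3.95) and Nkg7 (29.0 ± 16.7 and 64.5 ± 16.6) were low, and Cd4 measured 307 ± 166 and 404 ± 352. The B cell genes Ms4a1 (138 ± 53.1 and 199 ± 68.3) and Cd79b (243 ± 105 and 328 ± 122), Ighm (10413 ± 4142 and 13193 ± 6657), and the neutrophil genes S100a8 (19.8 ± 5.43 and 15.9 ± 1.29), S100a9 (14.8 ± 3.05 and 20.8 ± 7.37) and Csf3r (1199.6 ± 421 and 1251 ± 289.7) overlapped between the groups, as did the abundant Gsn (88473 ± 21631 and 90798 ± 11037).

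Over 12820 other genes with a mean of at least 50, the profiles nearest to the mean of the 10 were those of Crip2, Hoxa7, Phldb2, Prickle3, Jcad, Gimap6, Dst and Dlc1. Their root mean square differences over the 8 libraries were 0.03 to 0.05, where the median of all genes compared was 0.32. Adipoq itself lay at 0.11, Lipe at 0.12 and Cfd at 0.43 from that mean, which contains them. Crip2, the nearest, measured 2900.2, 4568, 4100.0 and 3632 in control and 5925, 4489, 4605 and 5318 in the knockout ones (0.43, SE 0.14, limma adjusted p = 0.133). Jcad, a protein of endothelial cell junctions, had the smallest limma adjusted p of the 8, 0.0860. Of these 8 genes, 3 to 6 stayed among the 8 nearest when 1 library was left out.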

How the data were processed

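RNA sequencing of 8 libraries was used. The deposited signal values are normalized gene counts: in each library they are whole reads (within 0.01) divided by 1 factor, and the smallest value is 1 read, never 0. FastQC, cutadapt, Salmon, DESeq2 and mm10 are named per the submitters' processing notes, without versions. The authors' deposited table gives log2 fold changes of control over knockout, with their standard errors, p-values and test statistics (a score). Per the file headers these are a DESeq2 comparison, and the sign was turned here.

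Differences were fitted with limma 3.58.1 (R 4.3.3, moderated with a trend, two-sided) on log2(value + 1) over 15862 genes with a mean of at least 10, and p-values were adjusted by Benjamini-Hochberg over them (threshold 0.05). All 10 genes passed this filter. A pseudocount understates the change of low genes. Alternatives were pseudocounts of 0.5 and 5, no filter, a mean of at least 50, other scalings, array weights, a replicate block, leaving out each library, and edgeR 4.0.16 and DESeq2 1.42.0 on recovered reads. The limma fit was tested on simulated data. Precision of counting is limited by 31789395 to 46621080 reads per library, and Poisson intervals cover counting error only. Precision of the differences also rests on the spread between libraries of a group, which exceeded counting error in Lipe and Slc2a4, for example. No 2 libraries of the same group agreed within counting noise.

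The members and gene lists were chosen with earlier results of these data known. Named are the 10 genes, Lyz2, for each list the 2 genes of lowest p and the gene of highest mean, and the 8 genes nearest in profile. Adgre1, Mertk, Fcgr1, Csf1r, Cd68, Adig, Acvr1c, Sncg, Aqp7 and Cebpa fall outside this rule and were chosen after their values were seen. The lists were wider adipocyte genes, lipid droplet and lipolysis, lipogenesis, receptors and partners, alternative complement, thermogenic fat, and markers of macrophages, fibroblasts and preadipocytes, endothelium, mural, mesothelial, T and NK, B, neutrophil and erythroid cells. Of the symbols, 21 had been turned into dates, and none is a gene named here. Gene positions, transcript lengths and 3′ untranslated regions came from GENCODE M21.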

Additional observations from a re-analysis of the deposited data

Results flagged for a closer look

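None of the 10 adipocyte genes had a library that stood apart from the other 3 of its group, among 124 groups of 4 checked. Chance flags about 1 in 20 such groups, and 5 were found, each in a marker of another cell type. Gsn was 120824 normalized counts in control replicate 1, where the other controls had 76006 to 79941. Knockout replicate 1 had 509 of the B cell gene Cd79b (244 to 280.2 in the other 3) and 23143 of Ighm (9164 to 10545). S100a9 stood at 19.3 in control replicate 2 (13.0 to 13.6 in the others), and Hba-a2 at 1264 in control replicate 3 (593 to 699).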

How the results depend on the processing

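No difference of the 10 genes changed sign under any alternative. Over all genes the limma count was 573, with 931 under array weights, 1557 in DESeq2 on recovered reads, and 163 to 502 with 1 library left out. The number of adipocyte genes called higher was 0, with 1 at a mean of at least 50 (Lep), 2 in DESeq2 (Lep and Plin1) and 0 to 1 with 1 library left out (Plin1 without control replicate 2). Adjusted p ran from 0.00328 to 0.248 for Lep, from 0.0126 to 0.278 for Plin1 and from 0.0777 to 0.366 for Lipe. Same-numbered libraries did not deviate together (correlations -0.20, -0.20, -0.04 and -0.29). The labels do not say whether equal numbers mean paired samples, and these few correlations cannot settle it. A replicate block left 7 genes over all and none of the 10. Scaling to the same total shifted the all-gene median by 0.06 from 0.00, the calls from 196 higher and 377 lower to 245 and 244, and the median of the 10 genes from 0.33 to 0.39. With 1 library left out that median was 0.22 to 0.47 and the ratio of the summed levels 1.18 to 1.31. Under array weights that median was 0.20, with Adipoq at 0.10, Cidec at 0.08, Retn at 0.08, Slc2a4 at 0.14 and Plin4 at 0.17. Of the 8 nearest genes 3 to 6 stayed when 1 library was left out. Cfd, Retn and Adrb3 have no value at a mean of at least 50, and Adrb3 no adjusted p in DESeq2. These 3 rested on 10 to 64 reads per library. The cause of these changes was not tested.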
